A study of Arabidopsis thaliana with 12 samples.

Results

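A set of 63 Arabidopsis genes stood at a high level in seedlings of the phyb mutant and lay close to the reference level again in seedlings of the double mutant sco3phyb. They were chosen from the measured values themselves. The rule took probe sets to which the annotation gives a single gene symbol in the form of a locus number. Such a gene can still have a name or a known function elsewhere. The mean log2 signal had to be at least 1.2 higher in phyb than in Col-0 and at least 1 lower in sco3phyb than in phyb. In sco3phyb it had to be within 1 of Col-0. The loci from AT3G18000 to AT3G20999, which surround SCO3 on chromosome 3, and 7 single loci were left out. The 63 probe sets stood for 63 loci, out of 11789 probe sets that the rule could take and 22746 non-control probe sets in all. The differences between Col-0, phyb and sco3phyb are therefore given as a description with no test, and the sco3 single mutant supplied the 3 arrays that the rule did not use.

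Whole seedlings that were 4 days old, grown on agar with 16 h of light and 8 h of dark, were measured on Affymetrix ATH1 arrays. Col-0, the reference line, was set beside the phyb mutant, the sco3 mutant and plants carrying both mutations, sco3phyb. Each of these 4 genotypes had 3 arrays labelled as biological replicates, grown alike. The labels name the mutants without their alleles, and do not say whether a mutant was followed in more than 1 line. RNA came from the whole seedling, so that fewer cells of a type and less RNA per cell cannot be told apart.

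PHYB encodes phytochrome B, the main receptor of red light in seedlings grown in white light. In its active form it enters the nucleus and leads to the breakdown of phytochrome-interacting factors, transcription factors that promote cell elongation and shade responses, so that seedlings without it grow long and carry less chlorophyll. SCO3, SNOWY COTYLEDON 3, is required for chloroplasts to develop normally in the cotyledons, which are pale in the mutant. The annotation named none of the 5 phytochrome genes and none of the 5 phytochrome-interacting factor genes that were looked for, so neither the PHYB transcript nor these partners were analysed here. Of 14 shade-induced genes 3 were measured, and all 3 were called higher in phyb than in Col-0 (limma, 17.6% of all probe sets were called higher). In sco3phyb against phyb 1 of these 3 was called lower (7.18% of all probe sets): FHL (AT5G02200), whose product helps phytochrome A into the nucleus. It stood at 3.95 in phyb and 2.81 in sco3phyb on the log2 scale (limma adjusted p = 0.00512). The others, HAT2 and IAA29, differed from phyb by -0.08 and -0.90 and were not called lower (limma adjusted p = 0.858 and 0.0694). In sco3phyb they remained 1.31 and 1.27 above Col-0 (limma adjusted p = 0.000323 and 0.00723).

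The median log2 signal of the 12 arrays lay between 4.53 and 4.74, and was higher by 0.15 in phyb and by 0.13 in sco3phyb than in Col-0. The median over probe sets of the difference from Col-0 had the other sign, at -0.06 in phyb and -0.02 in sco3phyb. With each array centred on its median, the smallest difference between phyb and Col-0 among the 63 loci was 1.08. Replicate 3 of Col-0 was least like its group, with a mean correlation of 0.978 with the other Col-0 arrays over probe sets, which are not independent replicates. All 63 loci were found in the RefSeq table as protein-coding genes whose symbol there is also the locus number. The protein families named here are general background on these loci and were not read from the deposited values. A family was given for 48 of them and none for 15. Markers of mesophyll, epidermis and root were not named by the annotation, so the labelled tissue could not be checked against them. Of the root hair list 2 of 4 genes were measured, and their summed linear signal lay between 121.2 and 385.9 in Col-0, 57.2 and 103.4 in sco3, 234 and 322 in phyb, and 111.3 and 156.1 in sco3phyb. One of them, the expansin gene EXPA7, was called lower in sco3phyb than in phyb (by 1.22 on the log2 scale, limma adjusted p = 0.0427), and neither was called in phyb against Col-0. Of the guard cell lineage list 3 of 5 genes were measured, with sums of 38.4 to 46.9 in Col-0, 34.4 to 41.2 in sco3, 26.1 to 31.6 in phyb and 31.7 to 35.8 in sco3phyb. Their regulator FMA was called lower than in Col-0 in phyb (-0.89, limma adjusted p = 0.00162, 15.9% of all probe sets called lower) and in sco3phyb (-0.50, adjusted p = 0.0444, 12.9% of all probe sets). The other measured genes, SPCH and MUTE, were called in neither (in phyb -0.23 and -0.16, limma adjusted p = 0.394 and 0.377). The MUTE means, from 2.40 to 2.75, lay near the lower quartiles of the arrays. The part of these cells in the values of the 63 loci was not tested.

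Among the 63 loci the mean log2 signal ran from 2.20 to 8.45 in Col-0, with a median of 4.11, and from 3.43 to 9.81 in phyb, with a median of 5.89. In sco3phyb it ran from 2.35 to 8.73 with a median of 4.27, and in sco3 from 2.25 to 8.51 with a median of 3.79. The phyb level was thus 2.34 to 10.8 times the Col-0 level, with a median of 3.38. In Col-0 the means of AT5G10210, AT4G12500 and AT4G26950 were under each array's own lower quartile, where a signal was not shown to be above background, and no phyb mean was. The lowest phyb array lay above the highest Col-0 array for 58 loci (21.4% of all probe sets separated in that way), and the highest sco3phyb array lay below the lowest phyb array for 59 (17.2% of all probe sets). These counts follow from the rule.

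**Figure D1:**
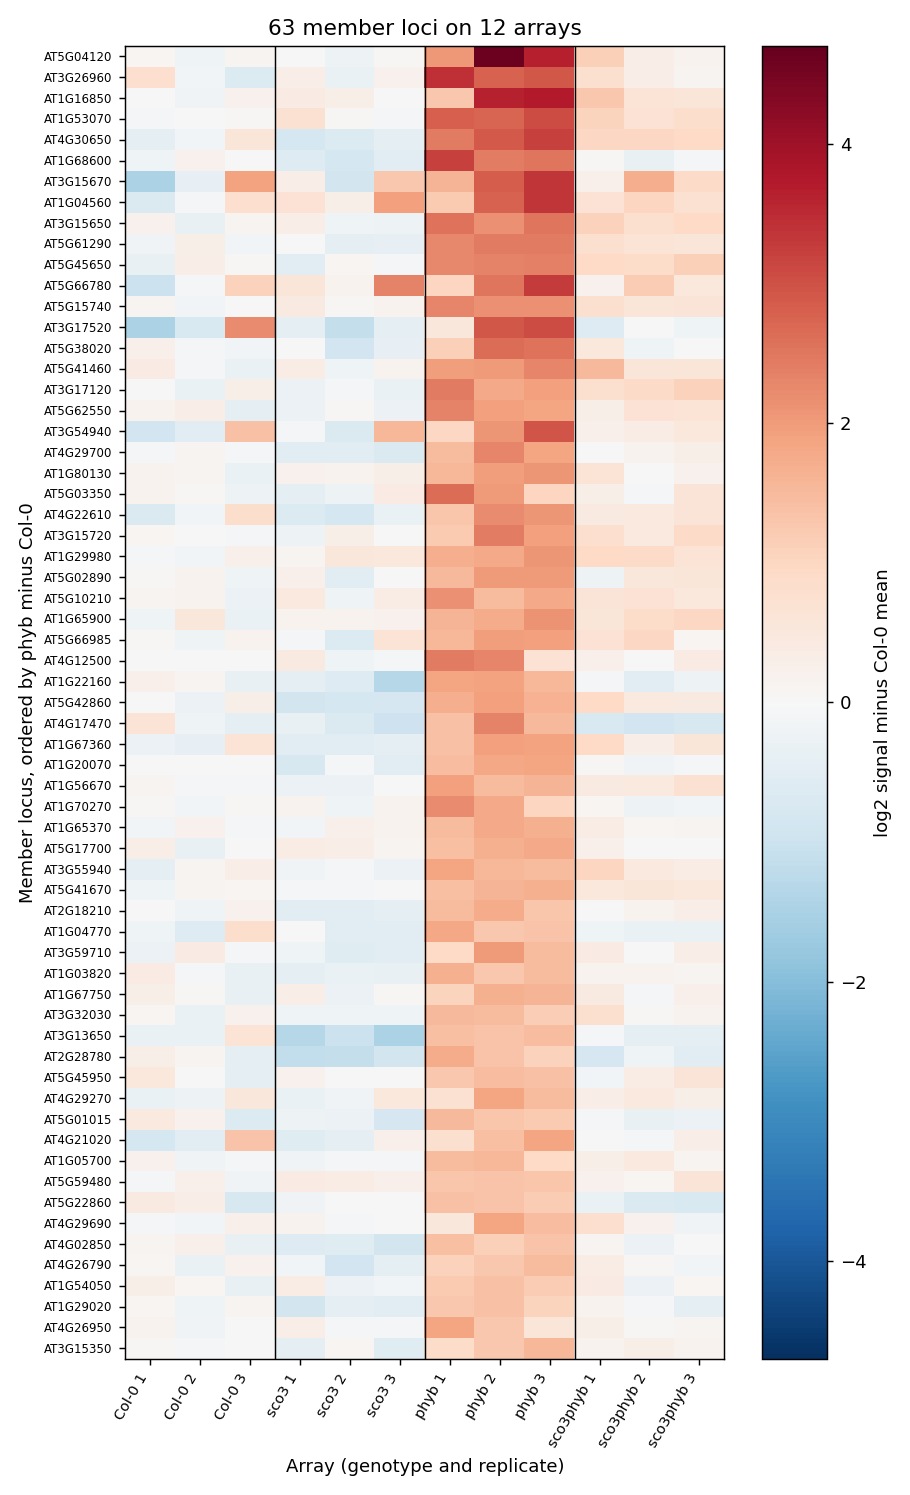
The log2 signal of each of the 63 loci (rows, ordered by phyb minus Col-0) on each of the 12 arrays (columns) is drawn as its difference from the Col-0 mean, red for higher and blue for lower. The 3 phyb columns are red throughout, and the sco3phyb columns return towards the pale Col-0 colours.

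The share of the phyb rise that was absent in sco3phyb, the return, was computed as the drop from phyb to sco3phyb in percent of the difference between phyb and Col-0, both on the log2 scale. Its median was 83.5%, and it ran from 55.1% to 144.9%. Of the 63 loci 50 remained above the Col-0 mean in sco3phyb and 13 lay below it, with 29 within 0.3 of it. With each array centred on its median 45 were above. For 43 loci the ranges of the sco3phyb and Col-0 arrays overlapped. For 19 every sco3phyb array was above every Col-0 array (21.8% of all probe sets), and for AT4G17470 every sco3phyb array was below (19.8% of all probe sets). The rule limits this difference to under 1, so that a complete return and a partial one both entered the set.

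The 63 were 19.7% of the 319 probe sets of this annotation class that met the rise limit in phyb. Of those 319, 146 (45.8%) were also at least 1.2 above Col-0 in sco3phyb. The mirrored rule, for loci lower in phyb and back near Col-0 in sco3phyb, found 42 of 210. Among all non-control probe sets 154 met the 3 limits. Besides the 63 these were 61 with no symbol, 26 with another symbol or several, and 4 that the rule leaves out by name, AT2G47780, AT3G53040, AT2G28490 and AT3G13610.

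Enzymes acting on phosphate esters held the largest difference of the set. AT5G04120, of the phosphoglycerate mutase-like family, gave log2 signals of 2.92, 2.63 and 2.97 in Col-0, 4.90, 7.44 and 6.49 in phyb, and 3.95, 3.16 and 3.02 in sco3phyb. The phyb arrays were all higher than any other array but lay far apart, and the phyb mean was 10.8 times that of Col-0. This fold was 17.5 without phyb replicate 1 and 7.23 without phyb replicate 2. In sco3 it stood at 2.84, 2.61 and 2.89, within the Col-0 range apart from a slightly lower lowest array. The neighbouring genes AT4G29700 and AT4G29690, both of the alkaline phosphatase-like family and with 1 annotated gene between them, differed from Col-0 by 1.88 and 1.29 in phyb and by 0.15 and 0.29 in sco3phyb. AT4G29270, an acid phosphatase of the HAD type, and AT5G59480, a hydrolase of the related haloacid dehalogenase family, were higher in phyb by 1.36 and 1.32.

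Genes for cell wall and extracellular proteins made up 8 of the 63, with differences between phyb and Col-0 from 1.22 to 3.04. The plant cell wall is a network of cellulose, xyloglucan and pectin that is loosened and rebuilt as hypocotyl cells elongate. AT3G26960, of the pollen Ole e allergen and extensin family, stood at 3.87, 2.97 and 2.43 in Col-0, at 6.52, 5.87 and 6.01 in phyb, and at 3.83, 3.40 and 3.22 in sco3phyb. Its sco3phyb arrays lay within the Col-0 range, and the phyb mean was 8.23 times the Col-0 mean. AT5G15740, for a rhamnosyltransferase of pectin synthesis, gave 7.25, 7.10 and 7.10 in phyb, against 5.10, 4.85 and 4.94 in Col-0 and 5.73, 5.54 and 5.57 in sco3phyb. For this gene the return was 70.5%, and every sco3phyb array remained above every Col-0 array.

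Genes of pectin breakdown were also present. AT3G15720, of the polygalacturonase type, was 1.85 higher in phyb than in Col-0 and 0.72 higher in sco3phyb. For AT1G67750, a pectate lyase gene, these differences were 1.44 and 0.20. AT5G42860, whose product is a companion of the cellulose synthase complex, stood at 5.02 ± 0.26 in Col-0, 6.78 ± 0.15 in phyb and 5.62 ± 0.30 in sco3phyb (log2 signal, SD, n = 3). AT3G13650, a dirigent gene of a family that guides the coupling of lignin and lignan precursors, stood at 6.91, 6.83 and 6.93 in phyb and at 5.41, 5.05 and 5.02 in sco3phyb. Its Col-0 arrays, at 5.17, 5.19 and 6.12, overlapped with those of sco3phyb. The glycosyltransferase-type genes AT5G41460 and AT3G15350 returned by 57.7% and 84.3%.

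**Figure D2:**
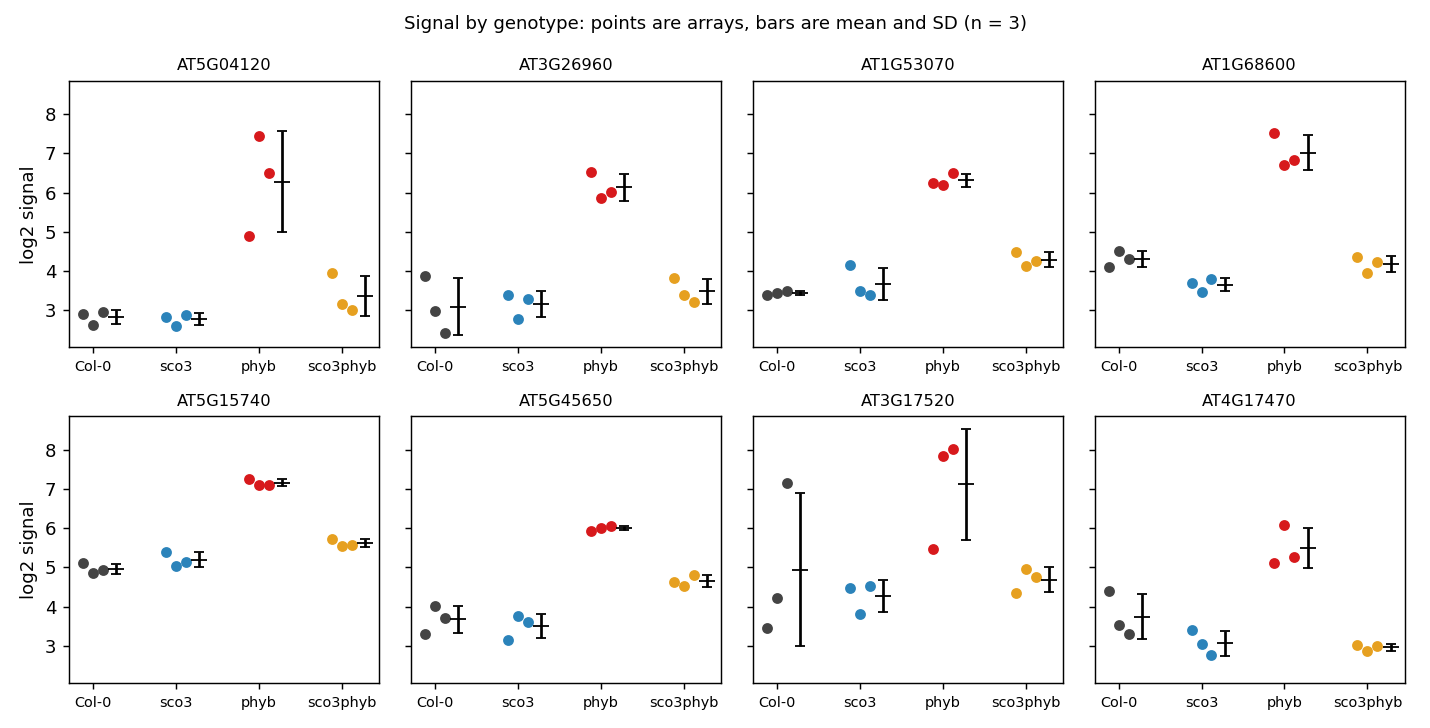
The log2 signal of 8 loci is plotted by genotype, with a point for each array and the mean and SD (n = 3) beside them. In 7 panels the phyb points lie above all Col-0 points and the sco3phyb points nearer to Col-0, while in that of AT3G17520 Col-0 replicate 3, at 7.15, lies above the lowest phyb array, at 5.47.

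Lipid and surface proteins supplied 9 loci, the largest named group. AT3G15650, an alpha/beta hydrolase gene, stood at 3.21, 2.67 and 3.14 in Col-0, 5.56, 5.17 and 5.51 in phyb, and 4.10, 3.75 and 3.94 in sco3phyb, so that the 3 genotypes did not overlap. Another hydrolase gene of that family, AT4G17470, had the largest return, 144.9%: its phyb arrays gave 5.12, 6.07 and 5.27, its Col-0 arrays 4.40, 3.53 and 3.30, and its sco3phyb arrays 3.02, 2.86 and 3.01. It was the locus whose sco3phyb arrays all lay below those of Col-0. The GDSL lipase genes AT5G45950, AT4G26790 and AT1G56670 were higher in phyb by 1.37, 1.27 and 1.67. AT5G45950 had a mean log2 signal of 8.45 ± 0.48 in Col-0 and 9.81 ± 0.09 in phyb (SD, n = 3).

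Lipid transfer and protease inhibitor family genes AT4G22610 and AT4G12500 differed by 1.86 and 1.81 between phyb and Col-0. AT4G12500 stood at 2.31 ± 0.02 in Col-0 and at 4.12 ± 0.97 in phyb (log2 signal, SD, n = 3). Its Col-0 mean and its sco3phyb mean, 2.53, were under the lower quartile of every array. Neither was shown to be above background, so its return and its small Col-0 SD are uncertain. AT4G12490, which lies close to it in the genome, missed the set because it remained 1.09 above Col-0 in sco3phyb. The acyltransferase family gene AT5G02890 and the phospholipase C gene AT3G55940, of phosphoinositide signalling, were 1.84 and 1.62 higher in phyb than in Col-0 and returned by 84.9% and 63.2%.

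Transport was represented by a pair of genes, AT1G68600 and AT5G17700, with returns of 104.6% and 94.9%. AT1G68600, of the aluminium-activated malate transporter family, which are anion channels of plant membranes, gave 4.11, 4.51 and 4.30 in Col-0, 7.52, 6.70 and 6.83 in phyb, and 4.36, 3.96 and 4.22 in sco3phyb. The sco3phyb and Col-0 arrays overlapped, and the phyb mean was 6.56 times that of Col-0. AT5G17700, of the MATE efflux family, stood at 4.37 ± 0.34, 5.99 ± 0.19 and 4.45 ± 0.15 in Col-0, phyb and sco3phyb (log2 signal, SD, n = 3).

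Proteases were 3 of the 63. AT5G45650, a subtilisin-like serine protease gene, stood at 5.94, 5.99 and 6.04 in phyb, 3.31, 4.01 and 3.72 in Col-0 and 4.62, 4.53 and 4.82 in sco3phyb. It returned by 57.8%, and its sco3phyb arrays formed a middle level that overlapped with neither other genotype. AT5G22860, a serine carboxypeptidase gene, gave phyb arrays at 5.56, 5.54 and 5.40, Col-0 arrays at 4.63, 4.51 and 3.45, and sco3phyb arrays at 3.90, 3.50 and 3.48. Its mean in sco3phyb differed from that of Col-0 by -0.57, and the arrays of both overlapped. The remaining gene of this group, AT3G54940, is of the papain type, with Col-0 arrays at 3.36, 3.76 and 5.61 and phyb arrays at 5.21, 6.31 and 7.22, which overlapped. Its phyb mean was 4.00 times the Col-0 mean, and 6.43 times without Col-0 replicate 3.

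Other metabolic genes were 6 in number. AT5G61290, a flavin monooxygenase gene, stood at 2.82, 3.26 and 2.83 in Col-0, at 5.22, 5.40 and 5.41 in phyb and at 3.71, 3.63 and 3.55 in sco3phyb, again without overlap between these genotypes. AT5G41670, for a phosphogluconate dehydrogenase of the pentose phosphate pathway, was 1.56 higher in phyb than in Col-0 and returned by 66.6%. AT5G38020, of the methyltransferase family that acts on salicylate-type acids, reached 4.29 times the Col-0 level and returned by 95.2%. The short-chain dehydrogenase-type gene AT3G59710, the phenazine biosynthesis-like gene AT4G02850 and the terpene synthase family gene AT3G32030 reached 2.77, 2.43 and 2.64 times the Col-0 level in phyb. The probe set of AT3G32030 is of the type that can match near-identical gene copies, so its value is uncertain as that of a single gene.

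Signalling and regulatory families supplied 8 loci. AT1G53070, of the legume lectin family, stood at 3.44 ± 0.06 in Col-0, 6.31 ± 0.16 in phyb and 4.30 ± 0.19 in sco3phyb (log2 signal, SD, n = 3). The arrays of these 3 genotypes did not overlap, and 70.2% of the difference was gone in sco3phyb. A second lectin gene, AT5G03350, had phyb arrays at 6.03, 5.42 and 4.42 and sco3phyb arrays at 3.69, 3.37 and 4.03, the latter overlapping with Col-0 at 3.59, 3.49 and 3.19. AT1G22160, an FLZ zinc finger gene, and AT1G04770, of the tetratricopeptide repeat family, returned by 114.8% and 118.1%. AT1G80130, also of the tetratricopeptide repeat family, AT1G65370, of the TRAF-like family, the receptor kinase gene AT1G05700 and AT4G26950, of the senescence regulator family, were higher in phyb by 1.88, 1.64, 1.33 and 1.23.

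**Figure D3:**
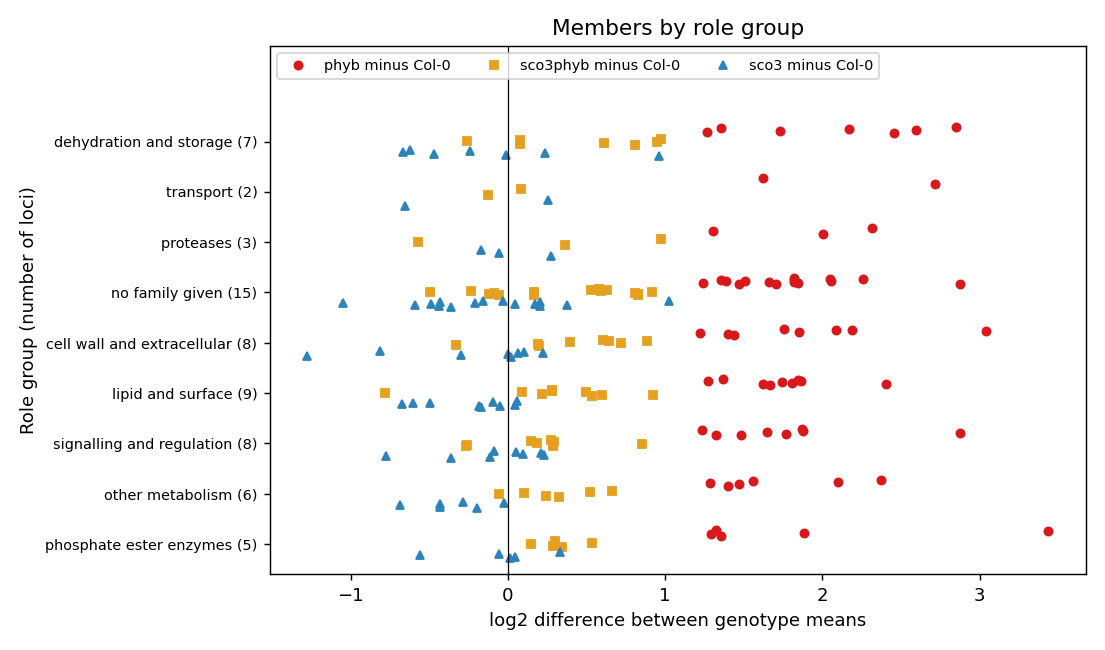
For each role group the loci are plotted by their log2 difference from Col-0, with circles for phyb, squares for sco3phyb and triangles for sco3. Circles lie above 1.2 by the rule, squares lie within 1 of Col-0 by the rule, and the triangles scatter on both sides of 0.

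Genes tied to drying, cold and storage lipids in plants formed a group of 7. Late embryogenesis abundant proteins accumulate in maturing seeds and in drying tissue, where they protect other proteins and membranes. AT3G17520, of this family, gave 3.46, 4.21 and 7.15 in Col-0, 5.47, 7.85 and 8.02 in phyb, 4.48, 3.80 and 4.53 in sco3, and 4.34, 4.97 and 4.74 in sco3phyb. Col-0 replicate 3 lay above phyb replicate 1, so that the genotypes overlapped although their means differed by 2.17. AT3G15670, also of the family, gave 3.16, 4.25 and 6.54 in Col-0 and 6.24, 7.50 and 8.01 in phyb. AT4G21020, the other member of the family in the set, gave 2.31, 2.59 and 4.49 in Col-0 and 3.89, 4.55 and 4.99 in phyb. For AT1G04560, of the AWPM-like membrane protein family, the values were 3.50, 4.06 and 4.95 in Col-0 and 5.39, 6.94 and 7.53 in phyb, without overlap.

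Spread between replicates of one genotype was wide for these loci of the group, and also for loci outside it. A Col-0 SD of at least 0.7 was seen for 9 of the 63 loci, and in 8 of these Col-0 replicate 3 was the highest Col-0 array. Besides the loci just named, the 9 held AT3G26960, AT5G66780, AT3G54940, AT4G22610 and AT1G04770, which are outside the group. Of those 9, 7 were lowest in phyb replicate 1 among the phyb arrays. Over all 63 loci, 28 were highest in replicate 3 among the Col-0 arrays, and 35 were lowest in replicate 1 among the phyb arrays. Of the seed maturation and storage list 7 of 24 genes were measured, and their summed linear signal was 68.2, 88.5 and 189.8 in Col-0, 114.0, 98.6 and 216.6 in sco3, 144.4, 490.7 and 628 in phyb, and 128.7, 127.8 and 108 in sco3phyb. The sum was high in Col-0 replicate 3, sco3 replicate 3 and phyb replicates 2 and 3. On these arrays LEA4-5 weighed most in it, as the gene of the 7 with the highest signal. Its log2 signal was 6.62 in Col-0 replicate 3, and 8.22 and 8.27 in phyb replicates 2 and 3. In limma's test 4 of its 7 genes were higher in phyb than in Col-0 (17.6% of all probe sets), 3 were lower in sco3phyb than in phyb (7.18%), and 0 were called in sco3 against Col-0 (4.97%, either direction). The lowest mean of any of the 7 genes was that of AT2G28490 in Col-0, at 2.67. The contribution of the seed list to the values of the 63 loci was not tested.

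**Figure D4:**
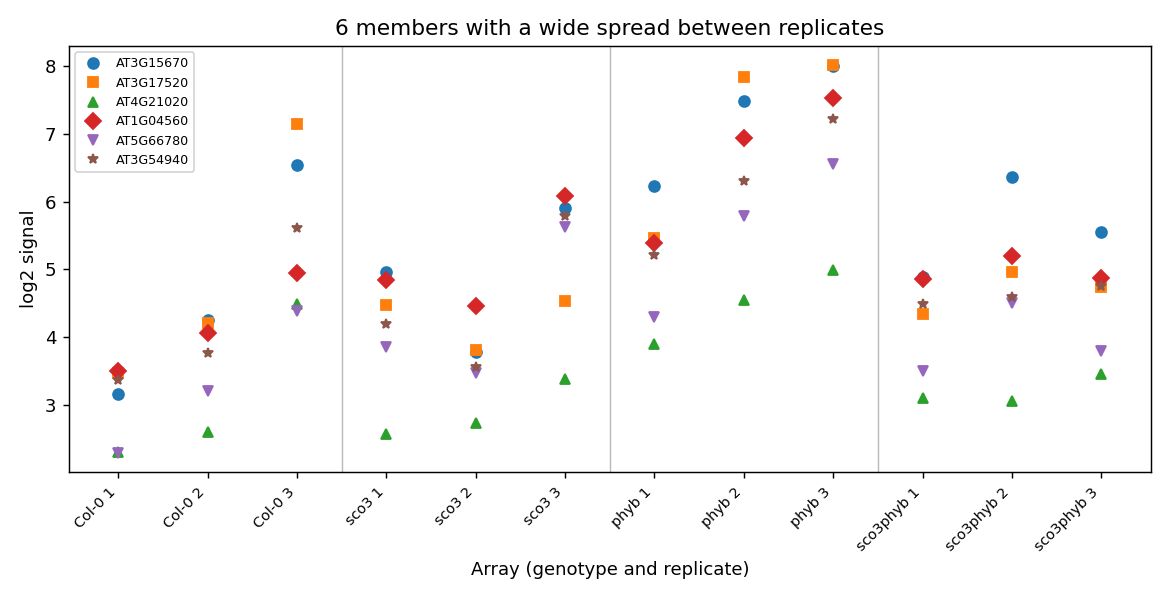
The log2 signal of 6 loci with an SD of at least 0.7 in both Col-0 and phyb, or of the late embryogenesis abundant family, is plotted on each array. All 6 are highest in replicate 3 among the Col-0 arrays and lowest in replicate 1 among the phyb arrays, and highest in replicate 3 among the sco3 arrays.

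Without Col-0 replicate 3 the rule took 60 loci, 50 of them among the 63. Of the 13 lost, 4 were in the group tied to drying, cold and storage, namely AT1G04560, AT1G54050, AT3G15670 and AT4G30650. AT3G15670 then stood 3.54 above Col-0 in phyb and 1.89 above it in sco3phyb, past the limit. AT5G66780, without a family given, and the papain-type protease gene AT3G54940 left the set in the same way, at 1.18 and 1.05 above Col-0 in sco3phyb. Without phyb replicate 1 the rule took 77 loci, 58 of them among the 63. Over the 9 settings that each leave out 1 array the rule uses, 27 of the 63 met the rule every time. These 27 included AT5G04120, AT3G26960, AT1G53070, AT1G68600, AT5G61290 and AT5G15740. AT3G17520 also met it each time, but its difference between phyb and Col-0 ran from 1.43 without Col-0 replicate 1 to 3.28 without Col-0 replicate 3. Its difference between sco3phyb and Col-0 changed sign between these settings, from just inside the lower limit to 0.85.

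The remaining loci of the group had less spread. AT4G30650, of a family of small membrane peptides that respond to low temperature and salt, gave 4.59, 4.87 and 5.58 in Col-0, 7.45, 7.89 and 8.24 in phyb and a mean of 5.99 ± 0.02 in sco3phyb (SD, n = 3). Its sco3phyb arrays were close to each other and lay above every Col-0 array. The lipid droplet gene AT1G67360 and the small heat shock protein gene AT1G54050 were higher in phyb by 1.73 and 1.27, and returned by 64.6% and 94.0%.

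For the 15 loci with no family given, the difference between phyb and Col-0 ran from 1.24 to 2.88 and the return from 55.1% to 135.5%. AT1G16850 gave 2.97, 2.84 and 3.18 in Col-0, 4.27, 6.63 and 6.72 in phyb and 4.27, 3.64 and 3.56 in sco3phyb. The lowest phyb array was level with the highest sco3phyb array. AT1G20070 had the smallest SD in Col-0 of all 63, at 5.69, 5.68 and 5.71, and reached 7.14, 7.52 and 7.54 in phyb and 5.74, 5.54 and 5.65 in sco3phyb. AT5G01015 had the highest Col-0 mean of these 15, 6.73 ± 0.56, and stood at 8.08 ± 0.14 in phyb and 6.49 ± 0.15 in sco3phyb (log2 signal, SD, n = 3). The smallest returns in the whole set, under 60%, were those of AT1G29980, AT3G17120 and AT1G65900 here and of AT5G45650 and AT5G41460 among the families.

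At the limits of the rule, AT3G15350, AT4G26950 and AT1G29020 had the smallest differences between phyb and Col-0 inside the set, 1.22, 1.23 and 1.24, and AT1G12845, AT1G13650 and AT1G66540 lay just outside at 1.19, 1.18 and 1.18. The difference of AT4G26950 is uncertain, since its Col-0 and sco3phyb signals were not shown to be above background. For the drop from phyb to sco3phyb, AT4G29690, AT4G29270 and AT1G65900 lay just inside at -1.01 each, and AT1G54870, AT5G54970 and AT5G47800 just outside at -0.99, -0.98 and -0.97. For the distance to Col-0, AT4G30650, AT5G45650 and AT3G15670 lay inside at 0.98, 0.97 and 0.95, and AT4G33040, AT1G06000 and AT4G12490 outside at 1.01, 1.06 and 1.09.

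The sco3 arrays show where these loci stood when SCO3 alone was mutated. Lower levels than in Col-0 were called for 4 loci: AT3G13650 of the dirigent family, AT2G28780 with no family given, AT5G42860, the companion of cellulose synthase, and AT4G02850 of the phenazine biosynthesis-like family. None was called higher. The share called was 6.35%, against 4.97% of all probe sets. By direction, 4 of 63 were called lower against 2.16% of all probe sets, and 0 of 63 higher against 2.81% (limma, adjusted p under 0.05), with 14 lower and 2 higher at an unadjusted p under 0.05. At that unadjusted level 9.78% of all probe sets were lower and 12% higher in sco3. The Col-0 arrays of this comparison are also those the rule used.

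AT3G13650 fell from 5.17, 5.19 and 6.12 in Col-0 to 4.16, 4.48 and 4.01 in sco3, without overlap. The difference was -1.28 ± 0.22 (log2, moderated standard error, n = 3 arrays per genotype, limma adjusted p = 0.00883). It was -0.96 without Col-0 replicate 3, its highest array, with an adjusted p of 0.00532. AT2G28780 fell from 4.16, 4.01 and 3.46 to 2.71, 2.78 and 3.01, by 1.05 ± 0.21 on the log2 scale (adjusted p = 0.0167). All its sco3 arrays lay below those of Col-0, and its sco3phyb arrays, at 3.10, 3.67 and 3.39, overlapped with those of Col-0. AT5G42860 fell from 5.02, 4.76 and 5.28 to 4.17, 4.21 and 4.25, by 0.81 ± 0.16 (adjusted p = 0.0164), and its sco3phyb arrays were all above those of Col-0. For AT4G02850 the values were 5.11, 5.21 and 4.62 in Col-0 and 4.36, 4.41 and 4.11 in sco3, a difference of -0.68 ± 0.17 (adjusted p = 0.0355). Its call was kept in 9 of 19 alternatives and lost, among others, with centred arrays and after quantile normalization.

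The residual spread behind these calls came from every genotype. With the Col-0 and sco3 arrays fitted alone 0 of the 63 were called, against 0.514% of all probe sets (limma, 13 of the 63 and 15.3% of all probe sets at an unadjusted p under 0.05). Without sco3 replicates 1, 2 and 3 there were 1, 1 and 2 calls in place of 4, while the share of all probe sets called was 2.15%, 2.31% and 1.74% in place of 4.97%.

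**Figure D5:**
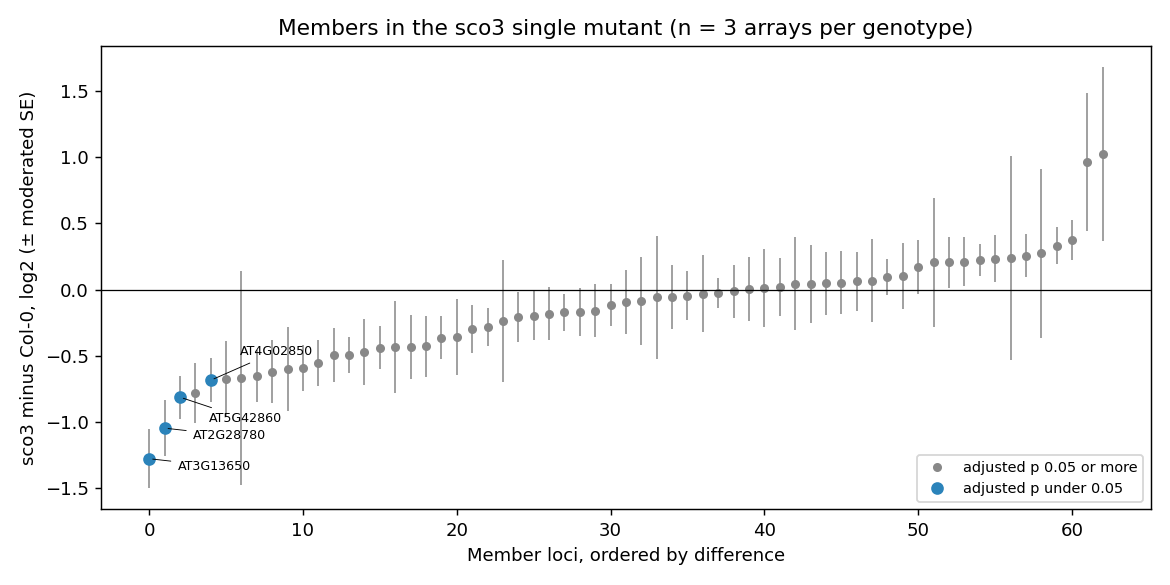
The 63 loci are placed in order by their log2 difference between sco3 and Col-0, with bars for the moderated standard error (n = 3 arrays per genotype). The 4 called loci lie at the lower end, at -1.28, -1.05, -0.81 and -0.68.

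Across the 63 the median difference between sco3 and Col-0 was -0.09, and 0.02 over all probe sets. In sco3 39 loci lay below the Col-0 mean and 24 above, with 38 within 0.3 of it. Every sco3 array lay below every Col-0 array for 11 loci, or 17.5%, against 10.3% of all probe sets, and above for AT5G59480 alone, or 1.59%, against 13% of all probe sets. Among the 11 were the malate transporter family gene AT1G68600, which differed by -0.65 ± 0.20 (limma adjusted p = 0.0769), and AT1G22160, which differed by -0.78 ± 0.23 (adjusted p = 0.0663), neither of them called. AT1G04560 and AT5G66780 had the highest positive differences, 0.96 ± 0.52 and 1.02 ± 0.66, with adjusted p of 0.307 and 0.393.

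The 256 probe sets that met the rise limit in phyb but were no part of the set had a median difference of 0.03 between sco3 and Col-0. Of them 17 (6.64%) were called higher and 7 (2.73%) lower in sco3, against 2.81% and 2.16% of all probe sets (limma). No test of the difference between the sets was run.

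Set beside sco3 in place of Col-0, the sco3phyb mean was higher for 56 of the 63 loci, with a median difference of 0.52 and a range from -0.51 to 1.60. The median difference between phyb and Col-0 for the same loci, where SCO3 was intact, was 1.76. The rule used the Col-0, phyb and sco3phyb arrays. It set the difference between phyb and Col-0 to at least 1.2 and held sco3phyb at least 1 below phyb. The gap between these medians therefore follows in part from the rule, and the values are a description. No share over all probe sets was drawn up beside the count of 56, so it is not read as particular to these loci. Array medians lay on average 0.13 above Col-0 in sco3phyb and 0.05 below it in sco3. The median over all probe sets of the difference from Col-0 was -0.02 in sco3phyb and 0.02 in sco3.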

How the data were processed

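The deposited values are log2 expression per probe set. The submitters' processing notes name RMA and Partek, and give no version or setting in the sources used here. Of 22810 probe sets 64 controls were left out. Groups and replicate numbers came from the sample titles. The platform annotation gave 1 symbol to 13513 probe sets (59.4%), several to 503 and none to 8730, and the RefSeq table of TAIR10.1 gave the gene order. A mean per genotype was fitted to all 12 arrays in limma 3.58.1 (R 4.3.3), with 8 residual degrees of freedom, two-sided p-values and Benjamini-Hochberg adjustment over 22746 probe sets, called at an adjusted p under 0.05. The fit was tested on simulated data. The p-values set a difference between genotype means against the spread between labelled biological replicates. This spread was pooled over the genotypes and moderated over probe sets, and the number of arrays limits the precision.

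The members and lists were chosen with earlier results of these data known. The planned classes from gene descriptions and the planned promoter motifs were not used here, and families were assigned by hand with the members' values known. Planned for naming were loci with the largest differences, calls in sco3, the first loci of each class, those nearest the limits and those with extreme returns. The other loci, and those in the plot of replicate spread, were named after their values were seen. Alternatives were array weights, a trend with robust fitting, centring, quantile normalization, leaving out the dimmest 40%, a replicate block, the Col-0 and sco3 arrays alone, other limits and each array left out. Figures were drawn with matplotlib 3.10.9.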

Additional observations from a re-analysis of the deposited data

How the results depend on the processing

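The number of loci the rule takes was 63, and 42 with a rise limit of 1.5, 37 with a residual limit of 0.5, 54 with each array centred on its median (50 shared) and 59 after a further quantile normalization (54 shared). Leaving out 1 array gave 57 to 77, of which 50 to 63 were shared. The median return stayed between 80.8% and 87.7% and the median difference between sco3 and Col-0 between -0.16 and -0.05 under the scalings and left-out arrays tried. The count of the 63 called in sco3 was 4, and 3 to 5 under the weights, trend, scalings, block and filter (5 of the 51 that passed it), 0 with the Col-0 and sco3 arrays alone and 1 to 6 with 1 array left out. Over all probe sets it was 1130, 117 with the Col-0 and sco3 arrays alone, and 396 to 1463 with 1 array left out (745 without sco3phyb replicate 3, and 488, 526 and 396 when sco3 replicate 1, 2 or 3 was left out). Deviations of same-numbered arrays from their genotype means correlated between -0.27 and 0.15, with 3 of 18 pairs over 0.1, so the numbers were not taken to pair the arrays. With the replicate number as a block the counts were 5 and 888. The 4 called loci kept their direction in 76 tests and their call in 58. AT3G13650 lost it with the Col-0 and sco3 arrays alone (adjusted p = 0.0913), and AT4G02850 kept it in 9 of 19, with adjusted p from 0.00743 to 0.151. The cause of these shifts was not tested. Arrays give no detection call here, so differences of loci near the lower quartile, 2.62 to 2.77 over the arrays, are the least certain.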

Other observations

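Chromosome 2 held 2 of the 63, 3.17%, and carried 16.7% of the 11789 probe sets the rule could take. AT2G47780 and AT2G28490, also on chromosome 2, met the fold limits but were left out by name, which lowers its share. Chromosomes 1, 3, 4 and 5 held 19, 12, 11 and 19. AT2G18210 and AT2G28780 were the pair on chromosome 2. Within 500, 1000 and 1500 genes of SCO3 on either side lay 2, 7 and 8 of the 63, or 1.17%, 1.39% and 0.951% of the probe sets the rule could take there, against 0.534% in the whole genome. The same windows around PHYB held 1, 1 and 2, or 0.273%, 0.155% and 0.218%. The 7 were AT3G13650, AT3G15350, AT3G15650, AT3G15670, AT3G15720, AT3G17120 and AT3G17520. Their differences between sco3 and Col-0 ran from -1.28 to 0.24, and 1 was called, AT3G13650. The left-out stretch surrounds SCO3, and its probe sets were not counted in these shares. In it 137 probe sets carried a single locus number, and 0 met the fold limits. Counting them would lower the shares around SCO3. No test of position was run.

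Of the 94 other measured probe sets that lie within 2 genes of one of the 63, 5 also met the rise limit in phyb. Of the 11789 probe sets the rule could take, 319 met it. The 94 also hold genes with another symbol, so the 2 counts are not of the same class. Whether neighbours rose more often than other probe sets was not tested. AT3G15680, next to AT3G15670, was 1.77 higher in phyb than in Col-0 and 1.12 higher in sco3phyb. AT4G30660, next to AT4G30650 and of the same family of membrane peptides, differed by 1.35 and 0.79. AT1G65920 and AT2G18220, near AT1G65900 and AT2G18210, differed by 1.59 and 1.65 in phyb and kept 1.35 and 1.49 of it in sco3phyb. AT4G12490, near AT4G12500, differed by 2.70 and 1.09.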
